A study of Mus musculus with 30 samples.

Results

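Zbp1, Ripk1, Ripk3, Mlkl, Casp8, Fas, Tnfsf10 and Xaf1 are 8 genes of apoptosis and necroptosis that are linked to interferon signalling. They were taken by symbol from a table of 54146 genes, and each of the 8 matched 1 gene. RNA-seq had been done on J774A.1, a mouse macrophage-like cell line. The 3 WT clones (WT1, WT2 and WT3) were expanded from single cells and had not been electroporated. The 2 KO clones (KO1 and KO2) lack B2_Mm2.Dicer1 on both alleles after CRISPR editing, a B2 SINE that sits within intron 1 of Dicer1 (chromosome 12). Each clone was left untreated (UT) or was given 100 ng/mL IFNG for 4 h, and 3 libraries were made for each of the 10 combinations of clone and treatment, which gave 30 libraries. Since WT clones were not put through editing, its effects and those of the deletion cannot be told apart, and the 3 libraries of a clone are repeats of 1 clone. Nothing in the sample descriptions says that those 3 libraries came from separate cultures, so the p-values measure the spread between these libraries, which may be technical.

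In background, IFNG binds its receptor and starts JAK signalling, which leads to transcription of genes with a GAS motif nearby, IRF1 among them. Fas and TRAIL (the product of Tnfsf10) belong to the death receptor system, in which a ligand gathers FADD and caspase-8 at the receptor on the target cell and starts apoptosis. When caspase-8 is not active, RIPK1 or the Z-nucleic acid sensor ZBP1 can bind RIPK3, which phosphorylates MLKL, and MLKL then ruptures the plasma membrane in necroptosis. XAF1 binds XIAP, an inhibitor of caspases.

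The necroptosis genes lie on 4 chromosomes of mm10, as given in the count tables: Zbp1 at chr2:173206612-173218923, Ripk1 at chr13:34002363-34037147, Ripk3 at chr14:55784995-55788865 and Mlkl at chr8:111311797-111338177. The other 4 genes are Casp8 at chr1:58795374-58847503, Fas at chr19:34290659-34327770, Tnfsf10 at chr3:27317028-27342427 and Xaf1 at chr11:72301629-72313733. All 8 are annotated as protein coding, and none lies on chromosome 12 with the deleted element. Exons of Ripk1 share 511 bases with Gm17084 on the same strand, and a read there was counted for both genes.

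Promoter sequences were read for the genes to show which of them hold the letters of the GAS motif or of the ISRE, the motif that interferon regulatory factors are known to bind. RefSeq windows on GRCm38.p6, from 250 bases before to 50 bases after the annotated start, were found for 7 of the 8 genes (all but Zbp1), in 8 windows, since Ripk1 has 2. TTCNNNGAA, the GAS motif, which reads the same on both strands, was held by 8.30% of all 32851 windows, by that of Fas and by 1 of the 2 of Ripk1. The core of the ISRE, which is GAAA repeated after a gap of 2 bases, was searched on both strands. It was held by 3.44% of all windows and by the same 1 of the 2 windows of Ripk1. GAAANGAAA has 1 base fewer in the gap than the ISRE core and was added after the sequences had been read. It was held by 3.17% of all windows and by those of Casp8 and Xaf1, matches that could be seen when it was chosen. The windows of Casp8 and Xaf1 held neither the GAS motif nor the ISRE core. The capitals below mark the match, and each sequence runs 5′ to 3′ on the strand of the gene. The Fas sequence is chr19:34290409-34290658 and the Casp8 sequence is chr1:58802252-58802501, both upstream of the RefSeq start and free of exons in a Gencode annotation of the same build. For Fas that start is also the start in the count tables, whereas for Casp8 it lies inside the longer span given there. The Ripk1 sequences are chr13:34002756-34002784 and chr13:34002853-34002881, and the Xaf1 sequence is chr11:72301629-72301657, all on the plus strand.
Fas: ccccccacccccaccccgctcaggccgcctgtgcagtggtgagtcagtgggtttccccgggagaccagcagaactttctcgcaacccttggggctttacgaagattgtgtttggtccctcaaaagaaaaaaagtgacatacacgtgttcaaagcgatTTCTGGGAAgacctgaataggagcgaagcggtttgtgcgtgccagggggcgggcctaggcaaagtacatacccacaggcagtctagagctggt
Casp8: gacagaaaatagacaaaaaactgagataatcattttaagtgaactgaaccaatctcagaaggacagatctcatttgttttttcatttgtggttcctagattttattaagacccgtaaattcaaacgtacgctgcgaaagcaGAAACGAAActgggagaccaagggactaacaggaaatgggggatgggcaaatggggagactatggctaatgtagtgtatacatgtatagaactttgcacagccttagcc
Ripk1, first match: agaagctggtTTCCCGGAAggggcggagg
Ripk1, last match: acttcaaacgTTCCCGGAAatcgaaaagc
Xaf1: tgtgtgcaaaGAAACGAAActccacagaa
The Fas match begins 93 bases before the start, and the Casp8 match begins 109 bases before it. In Ripk1 the last GAS match overlaps the ISRE core match GAAATCGAAA. All Ripk1 matches lie in the window whose start is inside the gene span in the count tables, and 171 of the 250 bases before that start are exon. The first GAS match lies wholly in exon, and the last lies outside exons. The other Ripk1 window, at the start in the count tables, held no match. The Xaf1 match begins at base 11 from the start and lies in exon. The windows of Ripk3, Mlkl and Tnfsf10 held none of the 3 sets of letters. A match is a description of the sequence and not a bound site.

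The libraries held between 15566122 and 37992642 counts, and levels below are CPM, read counts scaled to a common library total with TMM factors. Macrophage markers summed to between 4738 and 7403 CPM in the 30 libraries and 12 markers of T cells, B cells, neutrophils, fibroblasts, epithelium and endothelium to between 2.03 and 6.14 CPM, with Cd8a and Krt8 at 0 in every library. The macrophage sum was 4738 to 6141 CPM in WT libraries and 6499 to 7403 CPM in KO libraries, and its part in the differences between KO and WT was not tested. Dicer1 was at 96.8 to 130.2 CPM in WT UT libraries, 132.2 to 171.3 in WT IFNG, 70.5 to 108.5 in KO UT and 71.5 to 104.6 in KO IFNG. The counted Dicer1 exons lie outside the deleted element, so they are no direct check of the deletion. In bulk RNA, a change in the share of cells that express a gene and a change in RNA per cell cannot be told apart.

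All 8 genes rose with IFNG in each of the 5 clones, by edgeR's quasi-likelihood test at an adjusted p under 0.05. Among all genes tested, the share called higher was 11.8% in WT1, 17.4% in WT2, 18.6% in WT3, 16.2% in KO1 and 13.9% in KO2. The 8 genes were also called higher in pooled WT libraries, with 14.8% of all genes, and in pooled KO libraries, with 15.8%. In each clone the 3 IFNG libraries lay above the 3 UT libraries for all 8 genes, which held for 17.8% of all genes in WT1, 19.2% in WT2, 21.4% in WT3, 18.4% in KO1 and 19.6% in KO2. The 8 were chosen for their link to interferon with earlier results of these data known, so these shares do not compare like with like. All 8 genes were tested in each clone, but Zbp1 passed the filter on low counts in WT2, WT3 and KO2 only through the IFNG libraries, where it is high, so its call there had to follow. The genes fell into 2 sizes of response. Ripk1, Ripk3, Mlkl and Casp8, which are the kinases, the membrane executioner and the caspase, rose by log2 fold changes (log2FC) of 0.30 to 1.22, and Zbp1, Fas, Tnfsf10 and Xaf1 rose by 2.19 or more.

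**Figure D1:**
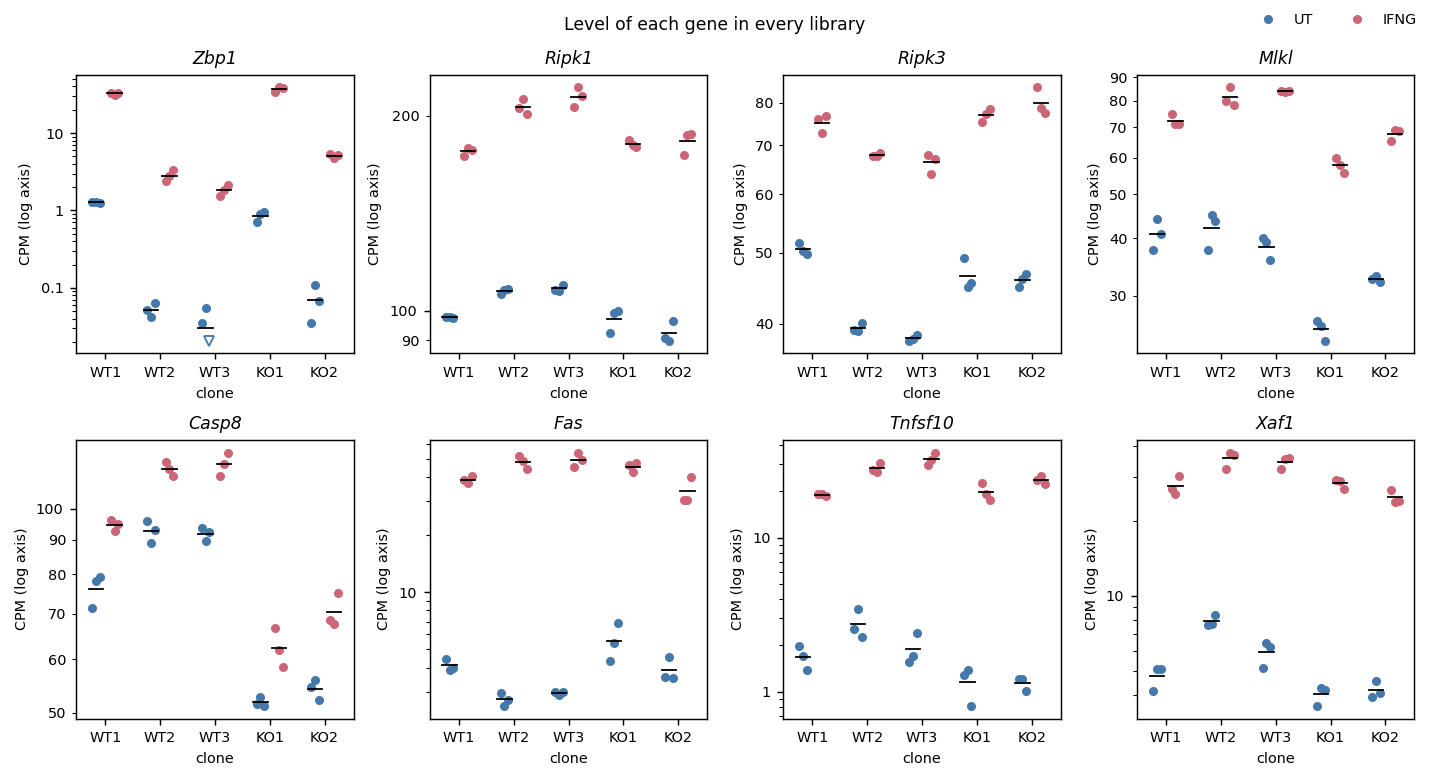
CPM (log axis) of each gene in every library, by clone, with UT libraries in blue, IFNG libraries in red and group means (n = 3) as black lines; the open triangle is the WT3 UT library with 0 Zbp1 counts. IFNG libraries lie above UT libraries in every panel and clone, Zbp1 is highest in WT1 and KO1, and Casp8 is lower in both KO clones than in all 3 WT clones.

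Per kilobase of exon, the 4 genes with the smaller response were already the most abundant before treatment. In WT UT libraries the mean CPM per kb was 30.03 for Casp8, 18.7 for Ripk3, 17.6 for Mlkl and 12.5 for Ripk1. It was 1.82 for Fas, 1.32 for Xaf1, 0.40 for Tnfsf10 and 0.13 for Zbp1. With IFNG, the mean CPM per kb of Fas in WT was 25.2, beside 23.9 for Ripk1, 30.4 for Ripk3, 34.3 for Mlkl and 37.5 for Casp8. Xaf1 at 6.96, Tnfsf10 at 5.04 and Zbp1 at 3.53 CPM per kb stayed below those 5. The Zbp1 mean rests on WT1, at 9.28 CPM per kb beside 0.80 in WT2 and 0.52 in WT3, and in WT1 and KO1 with IFNG Zbp1 stood above Xaf1 and Tnfsf10. In KO libraries with IFNG, Ripk3 led at 34.2 CPM per kb, and Casp8 stood at 22.9.

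Zbp1, the sensor that engages RIPK3, was the gene whose level varied most between clones. Untreated, it read 1.29, 1.27 and 1.26 CPM in WT1, 0.05, 0.04 and 0.06 in WT2, 0.04, 0 and 0.06 in WT3, 0.70, 0.91 and 0.96 in KO1, and 0.03, 0.11 and 0.07 in KO2. With IFNG, it read 33.4, 31.4 and 33.4 CPM in WT1, 2.40, 2.76 and 3.29 in WT2, 1.53, 1.85 and 2.11 in WT3, 34.3, 39.1 and 38.6 in KO1, and 5.34, 4.79 and 5.24 in KO2. The libraries of WT1 and KO1 did not overlap those of the other 3 clones in either treatment, so the high level was seen in 1 WT clone and 1 KO clone. With IFNG the order was KO1, WT1, KO2, WT2 and WT3, and all 10 pairs of clones differed. KO1 and WT1 differed least (log2FC 0.19 ± 0.07 SE, edgeR adjusted p = 0.033), and WT1 stood above KO2 by 2.68 ± 0.09 on the log2 scale (adjusted p = 7.5e-22). Untreated, KO2, WT2 and WT3 rested on 6, 3 and 2 Zbp1 reads in all, and the neighbours KO2 and WT2 (adjusted p = 0.76) and WT2 and WT3 (adjusted p = 0.78) did not pass the threshold.

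Because of those few reads, the rise of Zbp1 is given as the ratio of summed counts with an exact 95% interval that covers counting error only. The ratio was 25.8 (21.3 to 31.5) in WT1 and 43.0 (33.6 to 55.9) in KO1. It was 55.1 (18.5 to 270.3) in WT2, 62.4 (16.8 to 521.6) in WT3 and 73.3 (33.4 to 200.9) in KO2. The interval of WT1 lay below those of KO1 and KO2 and did not overlap them, while the wide intervals of WT2 and WT3 contain the ratios of WT1 and KO1. The test of whether the response differed among the 5 clones called Zbp1 (edgeR adjusted p = 0.0465), but only 13 of 32 alternatives that gave a value did so, and the adjusted p ranged from 0.0289 to 0.136 over them.

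Ripk1 and Ripk3, the 2 kinases that meet through their RHIM motifs, rose in all 5 clones. The log2FC of Ripk1 was 0.84 ± 0.06 (SE) in WT1, 0.96 ± 0.04 in WT2, 0.99 ± 0.04 in WT3, 0.93 ± 0.05 in KO1 and 0.98 ± 0.05 in KO2. The mean level of Ripk1 was 92.4 to 108.3 CPM in the UT groups and 176.3 to 214.2 CPM in the IFNG groups. Its response was not called different among clones (edgeR adjusted p = 0.58). Ripk3 rose by 0.56 ± 0.06 in WT1 and by 0.76 to 0.81 in the other 4 clones on the log2 scale. WT1 held the highest untreated level of Ripk3, 50.6 ± 0.95 CPM (SD, n = 3), beside 38.2 ± 0.37 in WT3 and 39.5 ± 0.54 in WT2, and KO1 and KO2 lay between at 46.5 ± 2.3 and 45.9 ± 0.96. The test among clones gave an adjusted p of 0.0578 for the Ripk3 response, which missed the threshold, while 4 of 33 alternatives passed it.

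Mlkl, the substrate of RIPK3, had lower means in the KO clones than in the WT clones in both treatments. Untreated, it read 37.7, 44.0 and 41.0 CPM in WT1, 37.8, 45.1 and 43.6 in WT2, 40.1, 39.2 and 35.9 in WT3, 26.4, 25.8 and 23.9 in KO1, and 32.7, 33.2 and 32.2 in KO2. With IFNG, it read 74.7, 71.1 and 71.0 CPM in WT1, 79.9, 85.5 and 78.2 in WT2, 83.9, 83.3 and 84.1 in WT3, 59.9, 57.8 and 55.6 in KO1, and 65.1, 69.1 and 68.5 in KO2. No KO library reached the lowest WT library of the same treatment. The share of all genes with such a separation by library was not counted. By clone means, both KO clones lay below the 3 WT clones for 15.6% of all genes in UT and 16.3% with IFNG. The difference between KO and WT was a log2FC of -0.48 ± 0.08 in UT (edgeR adjusted p = 0.000352) and -0.33 ± 0.06 with IFNG (adjusted p = 0.000869). The KO clones also differed from each other, with KO2 above KO1 by 0.36 ± 0.06 in UT and by 0.22 ± 0.06 with IFNG on the log2 scale. With IFNG, WT1 stood above KO2 by only 0.10 ± 0.06 on that scale, which did not pass the threshold (edgeR adjusted p = 0.17). The rise with IFNG was 0.81 ± 0.07 in WT1, 0.96 ± 0.06 in WT2, 1.13 ± 0.05 in WT3, 1.22 ± 0.06 in KO1 and 1.05 ± 0.06 in KO2. It differed among clones (edgeR adjusted p = 0.0293), in 26 of 33 alternatives as well.

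Casp8, the initiator caspase of death receptors, showed the smallest rise of the 8 genes and the lowest adjusted p of the 8 for KO against WT. Untreated, it read 71.3, 78.2 and 79.2 CPM in WT1, 95.8, 88.8 and 93.0 in WT2, 93.6, 89.6 and 92.5 in WT3, 51.5, 52.7 and 51.2 in KO1, and 54.5, 55.9 and 52.2 in KO2. With IFNG, it read 96.2, 92.6 and 94.9 CPM in WT1, 117.2, 114.5 and 111.7 in WT2, 111.6, 116.4 and 120.9 in WT3, 66.6, 61.8 and 58.5 in KO1, and 68.6, 67.5 and 75.1 in KO2. KO and WT libraries did not overlap in either treatment. By clone means, both KO clones lay below the 3 WT clones for 15.6% of all genes in UT and 16.3% with IFNG. The share of all genes separated by library was not counted. The mean of each KO clone with IFNG (62.3 and 70.4 CPM) was below the mean of each untreated WT clone (76.2, 92.5 and 91.9 CPM). KO stood below WT by a log2FC of -0.72 ± 0.06 in UT (edgeR adjusted p = 1.13e-06) and -0.71 ± 0.07 with IFNG (adjusted p = 5.6e-06). WT1 was lower than WT3, its neighbour in the UT order, by 0.27 ± 0.05 on the log2 scale (adjusted p = 3.4e-05). The response of Casp8 was 0.30 to 0.37 on the log2 scale in the 5 clones and was not called different among them (adjusted p = 0.923).

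Fas, the death receptor, was the 1 gene of the 8 whose response was called different between genotypes. Untreated, it read 4.47, 3.92 and 4.01 CPM in WT1, 2.97, 2.53 and 2.70 in WT2, 2.98, 2.87 and 2.999 in WT3, 4.35, 5.41 and 6.85 in KO1, and 3.57, 4.54 and 3.53 in KO2. With IFNG, it read 38.6, 37.3 and 40.5 CPM in WT1, 51.4, 48.4 and 43.9 in WT2, 45.2, 53.9 and 49.1 in WT3, 46.4, 42.5 and 47.5 in KO1, and 30.4, 30.5 and 40.3 in KO2. By group means WT2 and WT3 were lowest before treatment and highest after it, and the WT1 libraries lay among the KO libraries before treatment. The log2FC was 4.15 ± 0.09 in WT2 and 4.07 ± 0.09 in WT3, against 3.22 ± 0.09 in WT1, 3.06 ± 0.11 in KO1 and 3.11 ± 0.13 in KO2. The response was lower in KO than in WT by 0.68 ± 0.16 on the log2 scale (log2FC -0.68, edgeR adjusted p = 0.0214), where 0.341% of all genes had a lower response in KO and 1.02% differed in either direction. Both KO clones lay below the 3 WT clones in the response of Fas, as for 11% of all genes. Without WT1 the difference was -1.02 (adjusted p = 1.83e-05), while it missed the threshold without WT2 (-0.53, adjusted p = 0.294), WT3 (-0.53, 0.244), KO1 (-0.65, 0.282) or KO2 (-0.72, 0.0706). The test among the 5 clones called Fas (adjusted p = 8.98e-05) and did so in 33 of 33 alternatives.

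**Figure D2:**
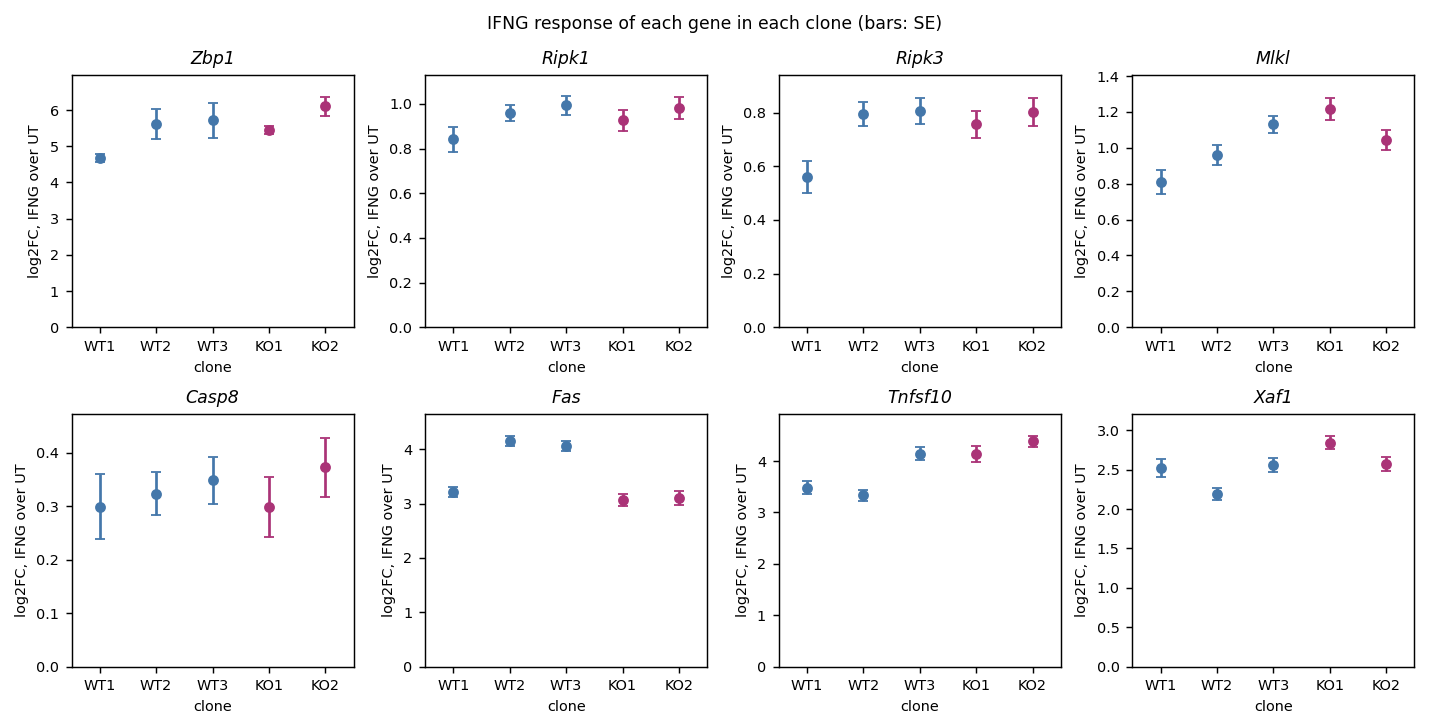
log2FC of IFNG over UT for each gene in each clone (points; bars are SE from edgeR, 3 against 3 libraries), WT clones in blue and KO clones in purple; each panel starts at 0 and has its own scale. Fas responses split into WT2 and WT3 near 4.1 and the other 3 clones between 3.06 and 3.22.

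Tnfsf10, the gene of the ligand TRAIL, was low before treatment in all clones. Untreated, it read 1.97, 1.71 and 1.39 CPM in WT1, 2.55, 3.46 and 2.26 in WT2, 1.56, 1.71 and 2.39 in WT3, 1.28, 1.38 and 0.81 in KO1, and 1.21, 1.21 and 1.01 in KO2. With IFNG, it read 19.2, 19.2 and 18.7 CPM in WT1, 27.5, 26.8 and 30.6 in WT2, 29.5, 31.8 and 35.8 in WT3, 22.8, 19.2 and 17.6 in KO1, and 23.8, 25.3 and 22.5 in KO2. All KO libraries were below all WT libraries before treatment, but the gap was narrow. The highest KO library held 1.38 CPM (KO1, 35 reads) and the lowest WT library 1.39 CPM (WT1, 41 reads). By clone means, both KO clones lay below the 3 WT clones in UT for 15.6% of all genes, and the share by library was not counted. With IFNG the KO libraries overlapped those of WT1. The rise was 3.33 ± 0.11 in WT2 and 3.48 ± 0.12 in WT1, against 4.14 ± 0.12 in WT3, 4.14 ± 0.16 in KO1 and 4.38 ± 0.11 in KO2 on the log2 scale. It differed among the clones (edgeR adjusted p = 0.00795), in 32 of 33 alternatives. KO against WT gave a log2FC of -0.87 ± 0.19 in UT (adjusted p = 0.00355) and -0.27 ± 0.15 with IFNG (adjusted p = 0.186). The difference in response between genotypes, 0.61 ± 0.18, missed the threshold (adjusted p = 0.134), though it passed with DESeq2 (adjusted p = 0.043), without WT3 (0.85, adjusted p = 0.00613) and with no filter on low counts (adjusted p = 0.00134).

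Xaf1, the XIAP-binding factor, had its lowest untreated means in the KO clones. Its UT mean was 7.91 ± 0.39 CPM (SD, n = 3) in WT2, 5.93 ± 0.72 in WT3, 4.76 ± 0.54 in WT1, 4.17 ± 0.32 in KO2 and 4.01 ± 0.35 in KO1. Its IFNG mean was 35.7 ± 2.8 CPM in WT2, 34.6 ± 1.8 in WT3, 28.3 ± 1.3 in KO1, 27.6 ± 2.4 in WT1 and 24.8 ± 1.5 in KO2. In UT, WT2 and WT3 differed (edgeR adjusted p = 0.015) and WT3 and WT1 differed (0.026), while WT1 and KO2 (0.18) and KO2 and KO1 (0.80) did not pass. The rise was 2.19 ± 0.08 in WT2 and 2.52 to 2.85 in the other clones on the log2 scale. The test among clones gave an adjusted p of 0.0490, and 12 of 33 alternatives passed.

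In the comparison of KO with WT, 6 of the 8 genes were called in UT, where 26.6% of all genes were called (14.4% lower and 12.2% higher). Ripk1 (log2FC -0.14 ± 0.04), Mlkl, Casp8, Tnfsf10 and Xaf1 (-0.59 ± 0.14) were lower and Fas (0.51 ± 0.16, edgeR adjusted p = 0.0278) was higher. With IFNG, 4 were called where 23.9% of all genes were (13% lower and 10.9% higher): Mlkl, Casp8 and Xaf1 (-0.29 ± 0.09) were lower and Ripk3 (0.17 ± 0.04, adjusted p = 0.00723) was higher. By clone means, both KO clones lay below the range of the 3 WT clones for 5 of the 8 genes in UT (15.6% of all genes) and for 2 with IFNG (16.3%), and above it for Ripk3 with IFNG (14.9%). These are ranks of means, and some lay close to WT1. In UT, neither KO1 nor KO2 differed from WT1 in Ripk1 (edgeR adjusted p = 0.90 and 0.12) or Xaf1 (0.081 and 0.18). With IFNG, neither differed from WT1 in Ripk3 (0.53 and 0.070). The UT call was lost for Ripk1 without WT2 (-0.12), WT3 (-0.11) or KO2 (-0.11), for Fas without WT2 (0.40), WT3 (0.44) or KO1 (0.24) and for Xaf1 without KO1 (-0.56), while Ripk3 was called without WT1 (0.25). The IFNG call was lost for Ripk3 without WT2 (0.15), WT3 (0.13), KO1 (0.19) or KO2 (0.15), for Xaf1 without WT2 (-0.23), WT3 (-0.25) or KO2 (-0.20) and for Mlkl without KO1 (-0.23, adjusted p = 0.051). Without WT1, all 8 were called with IFNG, with log2FC of 3.20 for Zbp1, -0.21 for Ripk1, -0.30 for Fas and -0.47 for Tnfsf10, and Fas was also called without KO1 (-0.43). Casp8 kept its call whichever clone was left out, in both treatments. The calls count libraries of the same clone as replicates. When the counts were summed per clone, so that 2 KO clones faced 3 WT clones, edgeR called none of the 8 in UT, in IFNG or in the difference in response. At an unadjusted p under 0.05 that fit held 4 of the 8 in UT (Mlkl, Casp8, Tnfsf10 and Xaf1), 2 with IFNG (Mlkl and Casp8) and 4 for the difference in response (Zbp1, Fas, Tnfsf10 and Xaf1), beside 11.4%, 11.3% and 5.2% of all genes, and DESeq2 was not run on the sums.

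**Figure D3:**
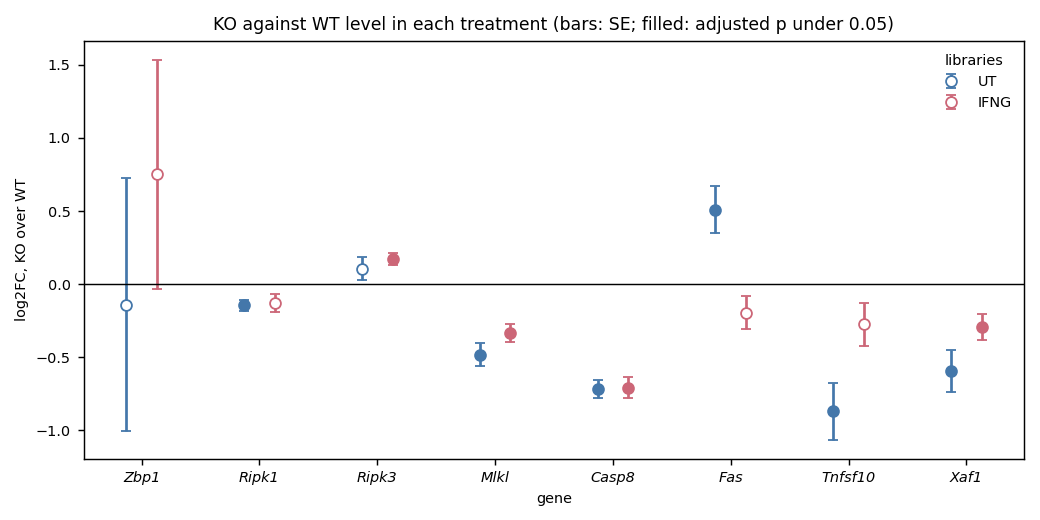
log2FC of KO over WT for each gene in UT (blue) and IFNG (red) libraries (points; bars are SE from edgeR, 6 KO against 9 WT libraries); filled points have an adjusted p under 0.05. Casp8 lies near -0.7 in both treatments, and Zbp1, whose clones differ within each genotype, has an SE of 0.86 in UT and 0.78 with IFNG.

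The clones of 1 genotype did not form a uniform group for these genes. WT2 and WT3 differed in 1 of the 8 genes in UT (6.47% of all genes) and in 1 with IFNG (9.53%). WT1 differed from WT2 in 7 of the 8 in UT (48.7% of all genes) and in all 8 with IFNG (47.3%). KO1 and KO2 differed in 3 of the 8 in UT (21.1%) and in 4 with IFNG (18.3%). The untreated level differed among the 5 clones for all 8 genes, beside 70.8% of all genes, and 5 of the 8 had a response that differed among clones, beside 3.68% of all genes. Leaving out 1 library gave 2 to 5 of the 8. The 3.68% covers all genes tested, whether or not they rose with IFNG, while all 8 rose.

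Other genes of these pathways moved in mixed directions. Pooled WT libraries (9 IFNG against 9 UT) were fitted without clone as a term, so the spread between clones enters the SE and the calls. In that fit, 14.8% of all genes tested were called higher and 13.9% lower, and the median log2FC of all genes was -0.003. A fit with clone as a term called 6367 genes, and the lists below were not read from it. Of 20 genes of the death receptor complexes, 18 were tested, 10 rose and 1 fell, with a median log2FC of 0.29. They include Tnfrsf1a, the TNF receptor (1.82 ± 0.08), Rnf31, the catalytic subunit of the linear ubiquitin ligase (1.13 ± 0.04), Cflar, the caspase-8 inhibitor cFLIP (0.93 ± 0.07), and Birc2, the ubiquitin ligase cIAP1 (0.70 ± 0.07). Tnf, the ligand, rose by 0.49 ± 0.17 in WT and 0.99 ± 0.24 in KO, and the WT call was lost without WT2 (0.47) or WT3 (0.54). The difference in Tnf response passed the threshold (0.57 ± 0.13, edgeR adjusted p = 0.0235), but not without KO1 (0.23), WT2 (0.61) or WT3 (0.52), and it was 0.93 without KO2. Fasl, the gene of the Fas ligand, and Tnfrsf10b, that of a TRAIL receptor, were near 0 in both genotypes and treatments. Their highest means were 0.04 CPM (KO UT) and 0.11 CPM (KO IFNG).

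Of 14 caspases and apoptosome genes, 2 rose, 2 fell and 10 did not pass, with a median of -0.002. Apaf1, the scaffold of the apoptosome, rose by 1.01 ± 0.08. Casp9, the initiator caspase of the apoptosome, and Htra2, a mitochondrial protease, had log2FC of -0.40 ± 0.04 and -0.13 ± 0.03, and both fell, though Htra2 was not called without WT3 (-0.11). Of 18 BCL2 family genes, 15 were tested, 3 rose and 3 fell, with a median of -0.04. Bcl2l11, which encodes the death-promoting BIM, rose by 0.52 ± 0.08 in pooled WT, with 0.64 in WT2, 0.77 in WT3 and 0.17 ± 0.08 in WT1, where it was not called (edgeR adjusted p = 0.15), and its response differed among the 5 clones (adjusted p = 0.000294). Mcl1, a survival factor, rose by 0.37 ± 0.08 and was not called without WT3 (0.31), whereas Bcl2 (-0.39 ± 0.06), another survival factor, and Pmaip1 (-0.55 ± 0.13), which encodes the death-promoting NOXA, fell. Bid, the target that links caspase-8 to mitochondria, was called for a larger response in KO than in WT (0.24 ± 0.06, edgeR adjusted p = 0.0434). Its log2FC was 0.34 ± 0.06 in WT1, 0.35 ± 0.05 in KO1 and 0.47 ± 0.05 in KO2 beside 0.07 ± 0.04 in WT2 and 0.03 ± 0.05 in WT3, and the call held without WT1 (0.36) but not without WT2 (0.20), WT3 (0.18), KO1 (0.31) or KO2 (0.17).

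Of 8 pyroptosis genes, 3 rose and 3 fell, with a median of 0.15. Casp4, the sensor of cytosolic lipopolysaccharide also known as caspase-11, rose by 2.87 ± 0.06 and Casp1, the inflammasome caspase, by 0.88 ± 0.05. The sensors Nlrp3 (-1.09 ± 0.11) and Aim2 (-0.15 ± 0.04) fell, the latter not called without WT2 (-0.09) or WT3 (-0.15). The fall of Nlrp3 was smaller in KO (-0.65 ± 0.07, difference 0.45 ± 0.07, edgeR adjusted p = 0.000474), a call that was lost without KO1 (0.35). Ninj1, which ruptures the membrane of dying cells, was called for a higher response in KO (0.37 ± 0.09, adjusted p = 0.0307), but not without KO1 (0.21), WT2 (0.35) or WT3 (0.32). Among 4 genes that act beside Zbp1, the RNA editor Adar (1.21 ± 0.05), the RNA-dependent kinase Eif2ak2 (1.54 ± 0.05) and the RNA receptor Tlr3 (2.20 ± 0.15) rose and the adaptor Ticam1 (-0.10 ± 0.18) did not pass. As a check of the treatment, 7 of 7 known IFNG targets rose, led by Gbp2 (7.51 ± 0.11), Socs1 (6.88 ± 0.16), Irf1 (5.10 ± 0.07) and Stat2 (2.71 ± 0.07). The responses of Irf9 (0.35 ± 0.07) and Gbp2 (0.55 ± 0.12) were called higher in KO than in WT in the same fit, which was lost without WT2 (0.28 and 0.44) or KO1 (0.28 and 0.35). On counts summed per clone, none of Tnf, Bid, Nlrp3, Ninj1, Irf9 and Gbp2 was called for a difference in response (edgeR adjusted p from 0.133 for Nlrp3 to 0.718 for Bid).

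**Figure D4:**
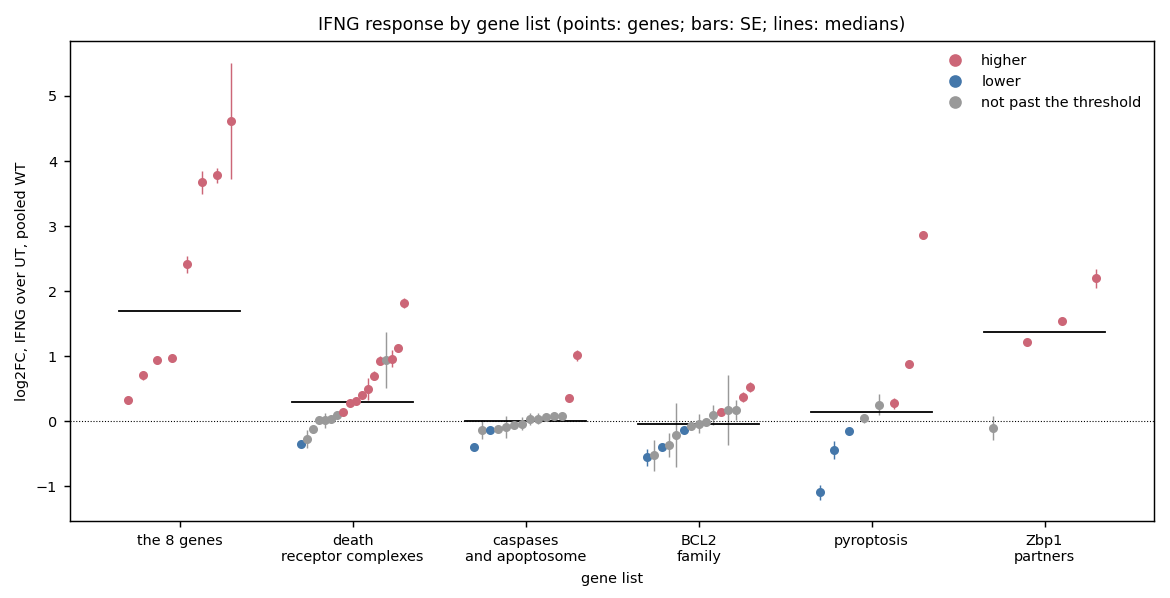
log2FC of IFNG over UT in pooled WT libraries for the 8 genes and 5 lists of related genes (points are genes, bars are SE from edgeR, black lines are list medians); red is called higher, blue called lower and grey not past the threshold. The 8 genes have a median of 1.69, above the medians of the other lists drawn, which run from -0.04 to 1.38. The 8 were taken for their link to interferon, so these medians do not compare like with like. The 7 known IFNG targets used as a check are not drawn and had a median of 2.90.

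Over the 10 group means of log2(CPM + 0.5), the genes most like each of the 8 out of 12345 genes averaging 1 CPM or more were as follows, as a description over groups that share libraries and treatment. Zbp1 was most like C130026I21Rik (Pearson r = 0.975) and Batf3 (0.972), the 2 lowest of the leading values, and its pattern is set by WT1 and KO1. Xaf1 was most like Mndal (0.999) and Ifi203 (0.998), and Tnfsf10 was most like Ifi203-ps (0.997) and Stat2 (0.997). Mndal, Ifi203 and Ifi203-ps belong to a family of near-identical genes. Only uniquely aligned reads were kept, so reads that fit more than 1 of them equally well are missing from their counts. Fas was most like Pgs1 (0.995) and Casp4 (0.993), and Krcc1 (0.986) was among the genes most like Casp8. Ripk1 was most like Ifi203-ps (0.997) and Snx10 (0.997), Ripk3 like Nuak2 (0.994) and Pde4b (0.992), and Mlkl like Plek (0.990) and Epsti1 (0.986).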

How the data were processed

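RNA was collected from J774A.1 clones and sequenced as polyA libraries (KAPA mRNA HyperPrep, paired-end NovaSeq). Per the labels, RNA input and adapter kind varied, with no statement of which library had which, so no batch could be fitted. The authors trimmed reads, aligned them to mm10 with HISAT2 2.1.0 and, per the file headers, made raw counts per gene with featureCounts 1.6.2 on Gencode M18, with strand and with reads in overlapping genes counted for each. The deposited counts were used as given, and the 30 pairs of libraries within a group differed by more than sampling noise (chi-square of 1.88 to 17.9 per degree of freedom). Of 14 tables, 13 repeat the counts of the table of all samples. Columns carry no replicate number and were mapped to groups only, and those named wtc1 and wtc3 were taken as WT2 and WT3 because the tables named for these clones hold them.

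Genes were tested with edgeR 4.0.16 (R 4.3.3): filterByExpr, TMM, quasi-likelihood F test, Benjamini-Hochberg adjustment over all genes, threshold 0.05. Each clone's response was fitted on its 6 libraries, pooled WT and KO responses and KO against WT on the libraries concerned, the genotype by IFNG interaction with clone as a term on all 30, and tests among clones and pairs of clones on 10 groups. SE is the log2FC divided by the square root of F. Alternatives were RLE scaling, no filter, at least 10 counts per library, DESeq2 1.42.0, each library or clone left out, clone as a term and counts summed per clone. The 8 genes and all lists were chosen with earlier results of these data known. Genes named from a list are the up to 4 with the smallest p in pooled WT and any that passed the interaction, besides Fasl and Tnfrsf10b, which are given for their low levels. A few genes that these rules select are not reported here. Positions are those of Gencode M18 in the count tables.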

Additional observations from a re-analysis of the deposited data

Results flagged for a closer look

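The IFNG response of Fas was lower in KO than in WT (log2FC of the difference -0.68), by a test of the difference itself that counts libraries of a clone as replicates. The call was lost without WT2, WT3, KO1 or KO2 and on counts summed per clone (adjusted p = 0.643), and the response of WT1 (3.22) was near those of KO1 (3.06) and KO2 (3.11). Tests among the 5 clones also gave a difference in response for Fas (edgeR adjusted p = 8.98e-05), Tnfsf10 (0.00795), Mlkl (0.0293), Zbp1 (0.0465) and Xaf1 (0.0490). A test of the gap between the outermost library and its neighbour flagged none, in 32 groups over the 8 genes. Each group pooled the clones of a genotype within a treatment (9 WT or 6 KO libraries). Because clones differ, that test can miss a library that stands apart within its own clone. Fas in KO2 with IFNG, at 30.4, 30.5 and 40.3 CPM, was not flagged.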

How the results depend on the processing

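No paired analysis was possible because the count columns carry no replicate numbers, so the replicate block and the left-out replicate numbers were not run. Leaving out each of the 30 libraries in the tests among clones was added after seeing the data, and library numbers are only names. The IFNG responses in single clones and in pooled WT and KO kept all 8 genes called in every alternative run. With clone as a term, the pooled WT response called 6367 of all genes in place of 1980 higher and 1860 lower. KO against WT called 1674 (without KO1) to 6472 (without WT1) genes in UT and 1411 (without KO1) to 5992 (without WT1) with IFNG. Of the 8 genes, it called 4 to 7 in UT and, with IFNG, 2 (without WT2, WT3 or KO2) to 8 (without WT1). Counts summed per clone called 1 gene in all in UT and 1 with IFNG, and 0 of the 8 in each. The interaction called 21 (without KO1) to 570 (without WT1) genes and 0 to 1 of the 8 when a clone was left out, 384 and 2 with no filter, 2 of the 8 with DESeq2, and 2 genes and 0 of the 8 on summed counts. The test of responses among clones called 919 genes with no filter, and 2 to 5 of the 8 without 1 library. It called 2 without WT1 UT replicate 2 or 3, WT2 UT replicate 2 or KO1 IFNG replicate 2, and 3 without WT1 IFNG 2, WT2 UT 1, WT2 IFNG 3, WT3 IFNG 2 or 3, KO1 UT 2 or 3, KO1 IFNG 1, KO2 UT 1 or 3, or KO2 IFNG 1.

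Only differences that were not called changed sign. KO against WT for Zbp1 was 0.012 with DESeq2 in UT, -2.73 to 0.78 in UT and -1.30 to 3.20 with IFNG when a clone was left out, and for Fas with IFNG -0.43 to 0.011. The interaction without 1 clone was -0.15 to 1.32 for Zbp1, -0.030 to 0.050 for Ripk1, -0.017 to 0.098 for Ripk3 and -0.051 to 0.048 for Casp8, and for Casp8 -0.0018 with at least 10 counts in every library and -0.0023 on summed counts. The causes were not tested. In all, 1215 values of single genes kept their direction and side of the threshold, 78 lost and 13 gained the call, and 12 changed sign. Depth limits Zbp1 in untreated WT2, WT3 and KO2, where 0 to 3 reads a library leave its ratio open over a wide interval.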
